A study of Xenopus laevis with 59 samples.

Results

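Of the 32291 transcripts counted in *Xenopus laevis* oocytes, 4 transcripts of regulators of transcription (id3.S, irf7.L, hes6.1.S and rbl1.L) were chosen because their totals differed between small oocytes and the medium and big oocytes of the same female. The .L and .S homeologs are the copies of a gene on the long and short subgenomes of this allotetraploid frog, and the partners id3.L, hes6.1.L and rbl1.S were added by name, which gave 7 transcripts. No .S row of irf7 was analysed here. The study cut untreated oocytes of 2 females along the animal-vegetal (A-V) axis into 5 sections, A (extremely animal), B, C, D and E (extremely vegetal), and sequenced each section (TOMO-Seq). Very small oocytes (n = 3, 560 to 580 µm, stage III) came from female 2. Small oocytes (n = 5, 720 to 810 µm, stage IV), medium oocytes (n = 2, 1050 µm, stage V) and big oocytes (n = 2, 1140 and 1200 µm, labelled as stage VI and described as late stage V in the study's methods) came from female 1. Oocytes were separated by hand, and the study sequenced oocytes picked for graded levels of localized control RNAs along the axis.

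A growing oocyte rests in meiotic prophase and stores RNA made from its lampbrush chromosomes for use after fertilization. Id3 is a helix-loop-helix protein without a DNA-binding region. It holds E proteins (tcf3, tcf12) away from DNA, and id genes are classical targets of bone morphogenetic protein (BMP) signals. Irf7 is an interferon regulatory factor, known in mammals as an activator of type I interferon genes after viral infection. Hes6 belongs to the hairy and Enhancer of split repressors, many of which answer to Notch, and in mouse it counteracts Hes1. Rbl1, also called p107, is a pocket protein that binds E2F factors and represses genes of the cell cycle.

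The 59 libraries held 1014060 to 7356435 counts, and summing the sections gave 14136256 to 27837206 counts per oocyte. Section A of very small oocyte 1 was not analysed here, so its total covers 4 sections. Levels are given as CPM, counts divided by the library size after scaling between libraries with the trimmed mean of M values (TMM). They are relative to the other RNA of the oocyte and not amounts per oocyte, and fewer cells of a type and less RNA per cell cannot be told apart. The 9 genes chosen as oocyte markers (such as zp2, zp4, gdf9 and npm2) summed to 1319 to 1648 CPM in each of the 12 oocytes. All 7 transcripts passed the filter on low counts (a mean scaled total over 20), as did 19059 transcripts in all. The p-values for totals within female 1 measure the spread between oocytes of 1 animal.

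The first question was how large the totals were at each stage. Transcripts of id3 were rare in small oocytes and more abundant in every medium and big oocyte. The id3.S total was 2.38, 0.0702, 1.93, 0.859 and 0.338 CPM in small oocytes 1 to 5. It was 3.88 and 4.64 CPM in the medium oocytes and 5.29 and 4.11 CPM in the big oocytes. The small oocytes therefore spread widely, yet their highest value lay under the lowest value of the larger oocytes. The value of small oocyte 2 rested on 1 count (exact Poisson 95% interval 0.0253 to 5.57 counts, counting error only), and that of small oocyte 5 on 7 counts. The partner id3.L was at 3.72, 0.421, 2.45, 1.15 and 0.434 CPM in the small oocytes. It was at 5.16 and 6.40 CPM in the medium and at 7.74 and 5.02 CPM in the big oocytes. Within the small oocytes both homeologs followed the same order, with oocyte 1 highest and oocytes 5 and 2 lowest. The log2 difference of medium and big from small oocytes was 1.97 ± 0.52 (SE) for id3.S and 1.87 ± 0.48 for id3.L.

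The irf7.L total was 2.08, 0.491, 1.34, 1.83 and 0.868 CPM in small oocytes 1 to 5. It was 3.71 and 5.46 CPM in the medium and 4.72 and 3.97 CPM in the big oocytes, again with no overlap. The log2 difference was 1.71 ± 0.29 (SE), and the ratio of the means was 3.38. Unlike id3, irf7.L was at 2.61, 3.18 and 2.47 CPM in the very small oocytes, all above the small oocytes and below the larger ones.

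The transcripts of hes6.1 were lower in the larger oocytes. The hes6.1.S total was 9.73, 14.3, 14.01, 15.8 and 21.3 CPM in small oocytes 1 to 5. It was 5.39 and 3.65 CPM in the medium and 3.87 and 4.01 CPM in the big oocytes. The small oocyte with the smallest diameter (720 µm, oocyte 5) had the highest level, and the larger oocytes lay close together. The partner hes6.1.L was the most counted of the 7 transcripts, with 62.8 to 80.0 CPM (median 75.1) in small oocytes and 37.8 to 47.7 CPM in medium and big oocytes. The log2 difference was -1.83 ± 0.20 (SE) for hes6.1.S and -0.77 ± 0.08 for hes6.1.L. The other hes6 gene, hes6.2.L, had 5 counts in 1 oocyte and was not tested.

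The rbl1.L total was 12.0, 19.1, 17.3, 18.1 and 28.8 CPM in small oocytes 1 to 5. It was 9.16 and 5.29 CPM in the medium and 6.26 and 5.02 CPM in the big oocytes. As for hes6.1.S, small oocyte 5 was highest and small oocyte 1 lowest among the small oocytes. The partner rbl1.S was at 15.1 to 24.7 CPM in small oocytes and at 8.93 to 13.4 CPM in the larger ones. The log2 difference was -1.58 ± 0.23 (SE) for rbl1.L and -0.81 ± 0.15 for rbl1.S.

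**Figure D1:**
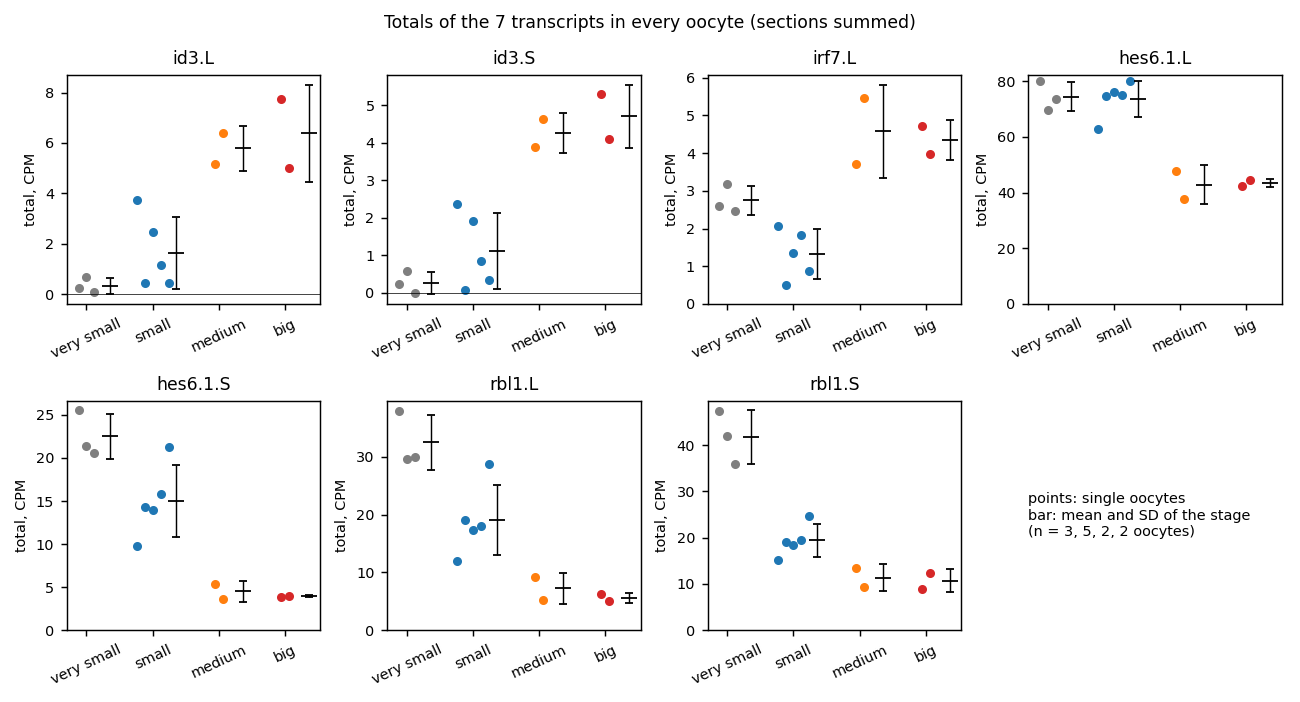
Totals in CPM (vertical axes, each from 0) of the 7 transcripts by stage, with 1 point per oocyte and a bar for the mean and SD of the stage (n = 3, 5, 2 and 2). The small oocytes (blue) do not overlap the medium and big oocytes (orange and red) in any panel, and irf7.L is the transcript whose very small oocytes (grey) lie between them.

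No transcript of the 7 overlapped between the 5 small and the 4 larger oocytes. Of all 19059 transcripts, 11.6% did not overlap either (4.08% higher and 7.51% lower in the larger oocytes), and 16.4% were called at a false discovery rate (FDR, the adjusted p) under 0.1 by edgeR (6.18% higher, 10.2% lower). The median log2 difference of all transcripts was -0.003. These values chose id3.S, irf7.L, hes6.1.S and rbl1.L, so the contrast is described here without a test, partners included. By size of the log2 difference, id3.S was the 6th, id3.L the 9th and irf7.L the 12th from the top of the 19059 transcripts. From the bottom, hes6.1.S was the 16th, rbl1.L the 24th, rbl1.S the 207th and hes6.1.L the 230th. The homeologs id3.L and id3.S thus stood near each other in this order. For hes6.1 and rbl1, the homeolog chosen by the difference in totals between small and larger oocytes ranked nearer the bottom than its partner. That choice favours the copy with the larger difference, so the gap in rank was not read as a difference between homeologs. The partners hes6.1.L and rbl1.S also stood near the bottom of the 19059 transcripts.

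The second question was whether the totals went on changing between medium and big oocytes, which the choice of transcripts did not use. No difference was detected for any of the 7 transcripts (edgeR, adjusted p = 1 for each). The log2 differences of big from medium oocytes were 0.14 ± 0.71 (SE) for id3.S, 0.14 ± 0.67 for id3.L and -0.08 ± 0.40 for irf7.L. They were -0.17 ± 0.33 for hes6.1.S, 0.03 ± 0.12 for hes6.1.L, -0.34 ± 0.37 for rbl1.L and -0.06 ± 0.24 for rbl1.S. The errors were narrow for hes6.1.L and wide for id3. Of all transcripts 0.00% were called by edgeR, with 686 at an unadjusted p under 0.05, and DESeq2 called 10. With 2 oocytes per stage, a difference had to be well above these errors (1 SE each) to be called. Differences of the size of the errors, and larger ones, may therefore have been missed.

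The very small oocytes of female 2 were then compared with the 9 oocytes of female 1, weighted by the number of oocytes. The weighted mean holds the medium and big oocytes as well as the small ones. Part of the difference between small and larger oocytes, which chose id3.S, irf7.L, hes6.1.S and rbl1.L, therefore enters each value. The p-values of this contrast are thus not separate support for that difference. Stage and female cannot be told apart in this contrast, in which 50.7% of all transcripts were called (26.0% higher and 24.6% lower in very small oocytes). Both rbl1 homeologs were higher in very small oocytes, by 1.49 ± 0.20 (SE) on the log2 scale for rbl1.L (edgeR, adjusted p = 3.39e-05) and by 1.48 ± 0.13 for rbl1.S (adjusted p = 8.7e-07). The rbl1.L totals were 38.0, 29.5 and 29.9 CPM in very small oocytes 1 to 3, all above the 28.8 CPM of the highest small oocyte. The rbl1.S totals were 47.5, 42.0 and 35.9 CPM, far from the 24.7 CPM of the highest small oocyte. The levels of rbl1 were therefore highest in the very small oocytes of female 2. Within female 1 they were lower in the larger than in the small oocytes. The first of these differences is one of stage and female together.

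The hes6.1 homeologs differed in this contrast. The hes6.1.S totals of 25.5, 21.4 and 20.6 CPM in very small oocytes gave a log2 difference of 1.41 ± 0.17 (SE; edgeR, adjusted p = 1.53e-05), with 1 of the 5 small oocytes inside their range. The hes6.1.L totals of 79.9, 69.8 and 73.6 CPM lay within the range of the small oocytes. The log2 difference of hes6.1.L was 0.37 ± 0.08 (adjusted p = 0.00158), since the weighted mean of female 1 also holds the lower medium and big oocytes.

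The id3 transcripts were lowest in very small oocytes. The id3.S totals were 0.242, 0.574 and 0 CPM on 4, 13 and 0 counts, where a count of 0 allows up to 3 counts or 0.211 CPM. The id3.L totals were 0.242, 0.662 and 0.0704 CPM on 4, 15 and 1 counts. They were inside or below the range of the small oocytes. The log2 differences from female 1 were -2.73 ± 0.76 (SE; edgeR, adjusted p = 0.0102) for id3.S and -3.0 ± 0.71 (adjusted p = 0.00374) for id3.L. Without very small oocyte 2, which held most of these counts, they were -3.95 and -4.13. For irf7.L no difference was detected (0.27 ± 0.29, adjusted p = 0.486), although with sections B to D alone it was called higher in very small oocytes (0.82, adjusted p = 0.0617).

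**Figure D2:**
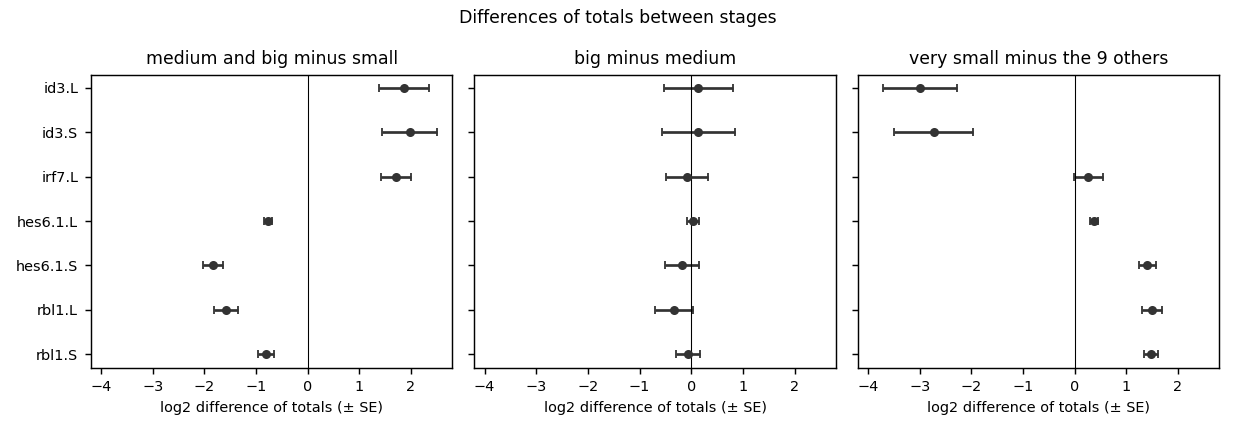
Log2 differences of totals with their standard errors (horizontal axis) for the 7 transcripts in 3 comparisons of stages. The medium and big oocytes differ from small oocytes in both directions (from -1.83 to 1.97), and the differences of big from medium lie between -0.34 and 0.14. Very small oocytes were lower in id3 and higher in hes6.1 and rbl1 than the weighted mean of the 9 other oocytes. That mean includes the medium and big oocytes, and the hes6.1.L totals of very small oocytes lay within the range of the small ones.

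The third question was where along the A-V axis the transcripts lay. On average the id3 and irf7 transcripts were higher in the outer sections A and E of the larger oocytes than in the middle, and no section difference was called for hes6.1 and rbl1. For id3.S, section E held 7.46 to 11.4 CPM in the 4 larger oocytes and section A 2.33 to 8.53 CPM. Sections B, C and D of those oocytes held 1.76 to 5.396 CPM. The 11.4 CPM of id3.S came from section E of medium oocyte 1, on 11 counts. For irf7.L, section E held 12.5, 9.84, 12.1 and 8.10 CPM in medium oocytes 1 and 2 and big oocytes 1 and 2. These values rested on 12, 52, 25 and 25 counts. Section A held 2.91, 8.86, 4.87 and 5.07 CPM in the same oocytes. Section E was thus the highest section for irf7.L in each of the 4 oocytes, while section A of medium oocyte 1 was not above its section D (5.17 CPM). Section A of this oocyte was also below its section D for id3.S (2.33 against 5.396 CPM) and id3.L (3.79 against 6.30 CPM), and in big oocyte 1 section A of id3.L (7.67 CPM) was near section D (7.74 CPM).

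Within a stage, a test over the 5 sections with the oocyte as a block called id3.L, id3.S and irf7.L in big oocytes (edgeR, adjusted p = 0.00931, 0.0243 and 0.0187). It called the same 3 transcripts in medium oocytes (adjusted p = 0.0397, 0.0413 and 0.0766). In small oocytes it called id3.L (adjusted p = 0.039) but not id3.S (0.243) or irf7.L (0.17), and in very small oocytes none of the 7. No hes6.1 or rbl1 transcript was called at any stage, with adjusted p from 0.263 to 0.991. Of all transcripts, 9.45% were called in big, 8.17% in medium, 8.43% in small and 6.01% in very small oocytes. DESeq2 did not call id3.L (adjusted p = 0.144) and id3.S (0.106) in medium or irf7.L (0.106) in big oocytes. The calls in medium and big oocytes rest on 2 oocytes each. With big oocyte 1 left out, in a fit over all libraries without the block, the adjusted p in big oocytes was 0.315 for id3.L, 0.539 for id3.S and 0.586 for irf7.L, and with big oocyte 2 left out it was 0.889, 0.77 and 0.438. For medium oocytes the same fit gave 0.774, 0.697 and 0.418 when the first was left out. When the second was left out it gave 0.989, 0.842 and 0.0842, the last being the one call kept. The call of id3.L in small oocytes was lost without small oocyte 3 (adjusted p = 0.188), 4 (0.165) or 5 (0.104).

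The outer sections A and E were also set against the middle sections B, C and D over all libraries, without a block for the oocyte, so the sections of 1 oocyte entered as separate samples and these p-values do not measure the spread between oocytes alone. In the medium and big oocytes the outer sections were higher by 1.31 ± 0.37 (SE) on the log2 scale for id3.L (edgeR, adjusted p = 0.0197), by 1.25 ± 0.36 for id3.S (0.0231) and by 1.21 ± 0.25 for irf7.L (0.000863). This contrast called 7.22% of all transcripts (5.64% higher and 1.58% lower in the outer sections). The hes6.1 and rbl1 transcripts were not called, with log2 differences of -0.45 ± 0.27 for hes6.1.S, -0.09 ± 0.10 for hes6.1.L, 0.07 ± 0.26 for rbl1.L and -0.09 ± 0.18 for rbl1.S. The irf7.L call held without any 1 oocyte (adjusted p up to 0.0208). That of id3.L was lost with DESeq2 (adjusted p = 0.211). Those of id3.L and id3.S were lost without big oocyte 2 (0.308 and 0.199) and without medium oocyte 2 (0.384 and 0.381). In small oocytes the same contrast called 3.28% of all transcripts (2.86% higher, 0.425% lower). It gave 0.98 ± 0.31 for irf7.L (adjusted p = 0.0869), a call that was lost without any of small oocytes 2 to 5 (adjusted p = 0.111 to 0.358) either big oocyte (0.111) or very small oocytes 2 or 3 (0.106 and 0.112). For id3.L it gave 1.00 ± 0.47 (0.355) and for id3.S 1.15 ± 0.46 (0.238). With the oocyte as a block, 1001 transcripts were called in place of 626, and the log2 difference in small oocytes was 0.93 for irf7.L (adjusted p = 0.0426), 1.08 for id3.S (0.0651) and 0.99 for id3.L (0.106). In the larger oocytes the block gave 1.31 for id3.L (edgeR, adjusted p = 5.94e-05), 1.23 for id3.S (0.000248) and 1.18 for irf7.L (5.36e-05). It called 1770 transcripts there in place of 1376, and again no hes6.1 or rbl1 transcript.

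As shares of the summed CPM of the 5 sections, the outer sections held 62.5% ± 11.6 (SD, n = 4) of id3.L, 62.1% ± 6.66 of id3.S and 62.2% ± 1.72 of irf7.L in the larger oocytes. CPM is relative to the other RNA of a section, so section shares are not shares of the molecules of an oocyte. The outer sections held 38.9% ± 2.03 of hes6.1.L, 31.1% ± 8.13 of hes6.1.S, 40.2% ± 10.3 of rbl1.L and 38.2% ± 6.53 of rbl1.S. The outer share of irf7.L ranged from 60.0% to 64.2% over the 4 larger oocytes, the narrowest spread among the 3 transcripts. Its 2 parts varied more than this sum. Section A held a mean of 20.7% (12.2% to 29.7%) and section E 41.55% (33.0% to 52.0%). Sections B, C and D held means of 12.2%, 10.3% and 15.3%. In small oocytes the outer share of irf7.L was 43.9% in oocyte 1 and 61.1% to 67.8% in the other 4. In the 2 very small oocytes with all sections it was 35.3% and 42.1%. A test of whether the section profile itself differed between small and larger oocytes called none of the 7 (edgeR, adjusted p = 0.481 for hes6.1.S, 0.906 for irf7.L and 0.998 to 1 for the others) and 5.35% of all transcripts. With the oocyte as a block it called hes6.1.S (adjusted p = 0.0234).

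**Figure D3:**
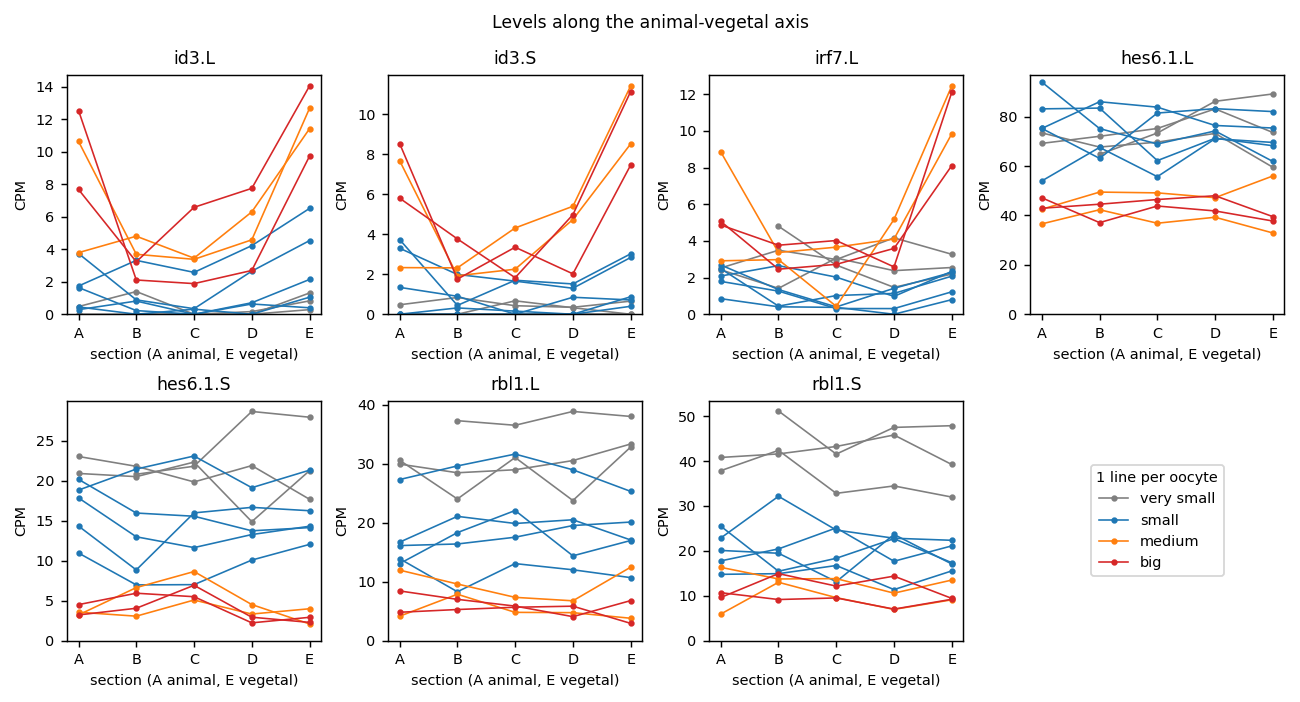
CPM (vertical axes, from 0) in sections A to E (horizontal axes) for the 7 transcripts, with 1 line per oocyte in the colour of its stage. The medium and big oocytes (orange and red) rise towards section E and, in most oocytes, section A for id3.L, id3.S and irf7.L, while the lines of hes6.1 and rbl1 show no shared rise at the outer sections.

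The single sections are parts of the totals that chose the transcripts, so their stage differences are given as a description with no test. For id3.S the log2 difference of larger from small oocytes was 1.72 ± 0.59 (SE) in section A, 1.57 ± 0.73 in B, 1.92 ± 0.72 in C, 2.5 ± 0.65 in D and 2.48 ± 0.53 in E. For irf7.L it was between 1.31 ± 0.47 in section B and 2.47 ± 0.37 in section E. For hes6.1.S it ran from -1.19 ± 0.29 in section C to -2.35 ± 0.35 in section E. In the larger oocytes section C held 30.8% ± 5.05 (SD, n = 4) of the summed CPM of hes6.1.S. For rbl1.L the log2 difference ran from -1.12 ± 0.31 in section A to -1.86 ± 0.32 in section C. For hes6.1.L it was between -0.86 and -0.69 in all sections. With the outer sections left out, the totals over sections B to D differed by 2.12 for id3.S, 2.01 for id3.L, 1.73 for irf7.L, -1.63 for hes6.1.S and -1.69 for rbl1.L.

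Within female 1, the share of the .S copy differed between small and larger oocytes for hes6.1 and rbl1. For id3 it was alike in most oocytes. The very small oocytes came from female 2, so stage and female cannot be told apart in their shares. The .S copy gave 23.2% ± 1.21 (SD, n = 3) of the hes6.1 counts in very small oocytes, 16.7% ± 2.82 (n = 5) in small, 9.48% ± 0.951 (n = 2) in medium and 8.32% ± 0.0423 (n = 2) in big oocytes. Its lowest share in a small oocyte, 13.4%, lay above the highest in a larger oocyte, 10.2%. For rbl1 the .S copy gave 56.3% ± 2.21, 51.1% ± 3.46, 61.6% ± 3.14 and 65.0% ± 8.77 at the same stages, and the small oocytes (46.2% to 55.8%) did not reach the larger ones (58.8% to 71.2%). The .L copy of rbl1 and the .S copy of hes6.1 were thus the ones with the larger difference. For id3 the .S share was 42.5% ± 0.654 in medium and 42.8% ± 3.103 in big oocytes, and 39.0% to 44.0% in the 4 small oocytes other than oocyte 2 (14.3% on 7 counts of both copies). These shares come from the counts that chose the .S or .L transcript, a choice that favours the copy with the larger difference, so they were not tested. The shares of other gene pairs were not computed, so how many separate in this way is not known here. Reads that fit both copies may have been assigned unequally, which was not tested.

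**Figure D4:**
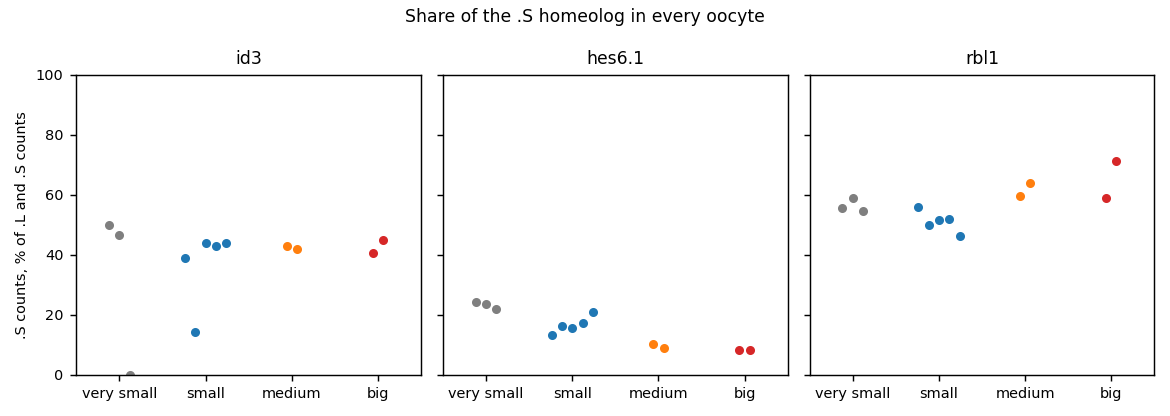
Counts of the .S homeolog as a percentage of the .L and .S counts (vertical axis, 0 to 100%) for id3, hes6.1 and rbl1, with 1 point per oocyte by stage. The hes6.1 share is 21.8% to 24.2% in very small oocytes (female 2) and 8.29% to 10.2% in medium and big oocytes (female 1). The mean rbl1 share is lowest in small oocytes. Stage and female cannot be told apart for the very small oocytes. The id3 share of very small oocyte 3 (0%) and small oocyte 2 (14.3%) rests on 1 and 7 counts of both copies.

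The summed markers of stroma and theca moved with id3 and, among oocytes of female 1, with irf7. Of the 11 genes listed as markers of stroma and theca (such as col1a1, col3a1, acta2 and myh11), 21 transcripts were counted. Their summed level was 258, 10.6, 245, 212 and 83.7 CPM in small oocytes 1 to 5. It was 285 and 418 CPM in the medium and 369 and 325 CPM in the big oocytes. The 2 small oocytes with least id3 (2 and 5) were therefore also those with least stroma and theca RNA, and in small oocyte 2, 9 of the 21 transcripts were at 0. In the very small oocytes the sum was 39.9, 72.1 and 11.5 CPM, while irf7.L was at 2.61, 3.18 and 2.47 CPM there. Of the 17 tested transcripts of the list, 4 rose from small to larger oocytes and 0 fell, with a median log2 difference of 1.19 (acta2.L 1.61, edgeR, adjusted p = 0.00852), against 6.18% higher and 10.2% lower and a median of -0.003 for all transcripts. The filter on low counts used the mean of all 12 oocytes, so a transcript rare in small oocytes could pass through the larger ones. Mean levels in small, medium and big oocytes were 0.871, 2.43 and 2.94 CPM for acta2.L and 1.06, 2.71 and 4.42 CPM for myh11.S. The count of rises is therefore a description. The outer sections held 60.4% ± 4.83 (SD, n = 4) of the summed stroma and theca markers and 60.2% ± 6.45 of the granulosa markers in the larger oocytes. They held 58.96% ± 6.54 of the leukocyte markers, 51.7% ± 5.23 of the blood and endothelium markers and 44.4% ± 0.696 of the oocyte markers. In the contrast of outer and middle sections of these oocytes, 10 of 17 stroma and theca and 8 of 10 granulosa transcripts were called higher and 0 lower, against 5.64% higher and 1.58% lower of all transcripts. Of the other markers, 3 of 13 oocyte, 1 of 9 blood and endothelium and 0 of 2 leukocyte transcripts were called higher, and 0 lower.

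Set against the stroma and theca sum of the same oocyte, id3.S was at 0.403% to 0.922% in small oocytes and at 1.11% to 1.43% in the larger ones. The id3.S totals chose this transcript, so this difference was not tested, and the id3.S value of small oocyte 2 rests on 1 count. For id3.L the values were 0.519% to 3.97% and 1.53% to 2.10%, and for irf7.L 0.549% to 4.64% and 1.22% to 1.31%, with overlap through small oocyte 2 in both. The granulosa markers summed to 22.0 to 65.0 CPM in small and 41.6 to 63.5 CPM in larger oocytes, and 0 of their 10 tested transcripts were called. Errors were wide, such as 0.28 ± 0.44 (SE) for gata4.S, so differences may have been missed. The blood and endothelium markers summed to 46.4 to 71.1 CPM in small and 67.4 to 94.1 CPM in larger oocytes. This sum mixes transcripts that went opposite ways. Of its 9 tested transcripts, 1 rose (hbg1.L, 1.61, edgeR, adjusted p = 0.0697) and 1 fell (tek.S, -0.39, 0.00867). The partner tek.L (0.42) was not called. Of all transcripts, 6.18% were higher and 10.2% lower. The leukocyte markers summed to 6.32 to 10.0 CPM in small and 6.67 to 11.7 CPM in larger oocytes, with 2 of 20 transcripts passing the filter. The part of these cells in the id3 and irf7 totals was not tested. The oocyte markers were lower in the larger oocytes (8 of 13 tested transcripts fell, median -0.20, against 10.2% lower of all transcripts), in the same direction as hes6.1 and rbl1. Among the small oocytes, oocyte 1 had the largest stroma and theca sum and the lowest hes6.1.S and rbl1.L. Small oocyte 2, with the smallest sum, had 14.3 CPM of hes6.1.S, near the middle of its stage. Its rbl1.L was at 19.1 CPM, below only small oocyte 5 (28.8 CPM). A link between the sum and these levels was not tested.

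**Figure D5:**
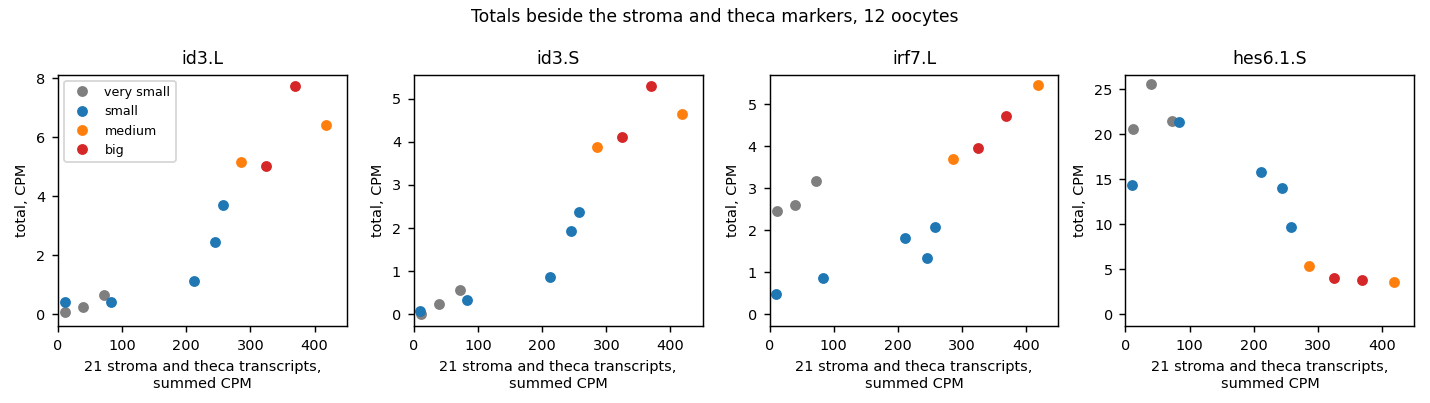
Totals in CPM (vertical axes) of id3.L, id3.S, irf7.L and hes6.1.S against the summed CPM of 21 stroma and theca transcripts (horizontal axes) in the 12 oocytes, coloured by stage. The id3 points are higher in oocytes with larger sums, the very small oocytes lie above the small ones for irf7.L at similar sums, and hes6.1.S is low in the 4 oocytes with sums from 285 to 418 CPM.

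Other genes of the pathways of the 4 regulators, counted without the 7 transcripts, were then read against the 6.18% higher and 10.2% lower of all transcripts. Of 6 tested transcripts of id and E protein genes, 1 rose (tcf12.S, 0.13, edgeR, adjusted p = 0.0574) and 0 fell. The partner tcf12.L (0.08) was not called. The id2 transcripts were at -0.01 (adjusted p = 0.963) for id2.L and -0.20 (0.259) for id2.S. Both id4 transcripts were below the filter on low counts and were not tested. The mean level of id4.S was 0.117 CPM in very small and 0.572 CPM in small oocytes. It was 2.03 and 2.26 CPM at the medium and big stages, the same order of stages as for id3, and that of id4.L was at most 0.0329 CPM at any stage. Of 42 transcripts of the BMP pathway 5 rose and 5 fell, with a median of 0.06. Those that fell included both copies of tob1, a regulator of BMP and Smad signals, with -0.65 (adjusted p = 0.000198) for tob1.L and -0.30 (0.00124) for tob1.S. The co-Smad smad4.1.L was lower, at -0.82 (edgeR, adjusted p = 0.00821), while smad4.1.S (-0.09), smad4.2.L (0.08) and smad4.2.S (0.06) were not called. The Smad corepressor ski.S was higher by 0.23 (edgeR, adjusted p = 0.0181), and ski.L (0.19) was not called.

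Of 16 transcripts of hes and hey genes, related repressors and their Groucho corepressors, 1 rose and 2 fell (median 0.03). They were the corepressors tle4.L (0.26, edgeR, adjusted p = 0.0248) and aes.L (-0.14, 0.0688) and the repressor bhlhe40.L (-0.19, 0.0707). The partners tle4.S (0.13), aes.S (0.07) and bhlhe40.S (0.16) were not called. The hes4, hes5.1 and hey1 transcripts did not pass the test, among them hes5.1.S at -0.70 (adjusted p = 0.116). Of 43 transcripts of the Notch pathway 5 rose and 4 fell (median 0.02). Beside both lists stand the 6.18% higher and 10.2% lower of all transcripts, with a median of -0.003. Single transcripts were named for their small adjusted p and do not show a shift of a list. The Notch ligand jag2 fell in both copies, with -1.33 (adjusted p = 0.000266) for jag2.L and -0.61 (0.00311) for jag2.S, and jag1.L fell too, with -0.27 (0.0151). The Notch effector rbpj.L was higher by 0.16 (edgeR, adjusted p = 0.0174). The partners jag1.S (0.02) and rbpj.S (0.04) were not called.

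Of 37 transcripts of other interferon regulatory factors and of sensors of foreign nucleic acid 5 rose and 3 fell (median 0). Among all transcripts 6.18% were higher and 10.2% lower (median -0.003). The receptor subunit ifnar1.S was lower, at -0.63 (edgeR, adjusted p = 0.00121) and the kinase tbk1.L, which activates irf3 and irf7 in mammals, was higher by 0.41 (0.0178). The partner ifnar1.L (-0.23) was not called, and tbk1.S was higher by 0.2 (edgeR, adjusted p = 0.0681). Among the irf genes, irf2.S (0.12, edgeR, adjusted p = 0.0814) and irf4.S (-0.24, 0.0792) passed the threshold. The partner irf2.L (0.09) did not. Of 14 tested transcripts of interferon target genes 0 rose and 1 fell (socs1.S, -0.22, adjusted p = 0.0308). The median of these targets was -0.14.

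Of 34 transcripts of pocket proteins, E2F factors and their DREAM partners 5 rose and 3 fell (median 0.02). For this list and the next 2, the shares of all transcripts were 6.18% higher and 10.2% lower. The pocket proteins rb1.S (0.02, edgeR, adjusted p = 0.779) and rbl2.L (0.38, 0.374) were not called. The Myb factor mybl1 fell in both copies, with -0.58 (adjusted p = 0.00624) for mybl1.S and -0.50 (0.0397) for mybl1.L, and e2f8.L was higher by 0.14 (0.0356). Of 20 transcripts of G1 cyclins, their kinases and inhibitors 2 rose and 2 fell (median 0.03), and the cyclin ccne2.L fell, with a log2 difference of -0.46 (edgeR, adjusted p = 0.000822). The partner ccne2.S (-0.08) was not called. Of 36 transcripts of immediate early genes 3 rose and 2 fell (median -0.04). In the same 36 transcripts, 11 were higher in the outer sections of the larger oocytes and 0 lower, against 5.64% and 1.58% of all transcripts. The stroma, theca and granulosa markers were higher there too, as given above, and their part in this count was not tested.

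Each chosen transcript was last compared with all others of a mean scaled total of at least 100 (15696 transcripts) by the Pearson correlation of log2 CPM over the 12 oocytes. Oocytes of a stage share that stage, so a high value mainly says that 2 transcripts have the same order of stages. Among these, the nearest to id3.S were 2 collagen V transcripts, col5a2.S (r = 0.968, Spearman rho = 0.986) and col5a1-like.L (0.958, rho = 0.979), and Xelaev18026445m (0.964, rho = 0.965). The homeolog id3.L was nearer to id3.S (r = 0.979), but its mean scaled total of 55.0 kept it out of this comparison. The nearest to irf7.L were rsbn1.L (0.923, rho = 0.972), htatsf1.S (0.910, rho = 0.916) and lyar.S (0.907, rho = 0.902). These 3 had their lowest values in small oocytes but differed by 0.17 to 0.22 on the log2 scale between small and larger oocytes, against 1.71 for irf7.L. The nearest to hes6.1.S were the homeobox factor lhx8.S (0.994, rho = 0.993), loc100216173.L (0.990, rho = 0.923) and the mitophagy receptor fundc1.S (0.989, rho = 0.951). The nearest to rbl1.L were rgmb.L (0.988, rho = 0.944), a BMP co-receptor, hes6.1.S itself (0.988, rho = 0.951) and arrdc2.L (0.985, rho = 0.972). The lhx8.S totals were 23.2 to 30.7 CPM in small and 13.3 to 16.3 CPM in larger oocytes, and those of rgmb.L were 13.6 to 24.2 and 7.97 to 11.5 CPM.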

How the data were processed

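The authors trimmed reads with Trimmomatic, removed ribosomal and mitochondrial reads with SortMeRNA, used STAR 2.5.2b to place them on the *X. laevis* v9.1 assembly, and counted with htseq-count. The deposited values are raw counts of 32291 transcripts in 59 libraries. The use of strand in counting is not given in the sources used here. Libraries were made from equal RNA amounts, so totals are relative. Counts were summed over the sections of each oocyte, scaled by TMM and tested with the edgeR 4.0.16 quasi-likelihood test (R 4.3.3, stage as factor, all 12 oocytes). Transcripts needed a mean scaled total over 20, and calls an FDR (Benjamini-Hochberg over 19059 transcripts) under 0.1. Standard errors are the log2 difference divided by the square root of F. Section tests used counts per library, with the oocyte as a block within a stage and without it in the contrasts over all libraries. log2 CPM used a prior count of 2. Scripts were tested on simulated data. DESeq2 1.42.0 was an alternative.

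The members and lists were chosen with earlier results of these data known. Named were the 4 regulators, their homeologs, the 3 transcripts most correlated with each (mean scaled total of at least 100), and up to 4 transcripts per list with the smallest FDR in the contrast of larger with small oocytes, plus members of the id, hes, irf and rb families. All 73 pairs of replicate libraries differed beyond sampling noise (chi-square per transcript 1.39 to 10.6). The 7 names matched RefSeq (Xenopus_laevis_v10.1), whose coordinates and sequences were not used here, as the counts rest on another assembly.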

Additional observations from a re-analysis of the deposited data

Results flagged for a closer look

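Among 22 measures checked in the 5 small oocytes, 3 had a value far from the other 4 by Dixon's gap test, which flags about 5% of groups by chance. The .S share of id3 counts was 14.3% in small oocyte 2 and 39.0% to 44.0% in the others. The outer sections held 100% of id3.S in the same oocyte, on a single count, and 54.1% to 65.0% in the others. The outer sections held 43.9% of irf7.L in small oocyte 1 and 61.1% to 67.8% in the others, on 48 counts in that oocyte.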

How the results depend on the processing

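The larger oocytes differed from small oocytes in 3124 transcripts (37.7% of them higher). This was 1855 at an FDR under 0.05, 385 with a 1.5-fold minimum (17.9% higher), 1143 with sections B to D (23.9% higher, chosen after seeing the data) and 1473 (without medium oocyte 2) to 3861 (without small oocyte 2) without 1 oocyte. The very small oocytes differed from female 1 in 9661 transcripts, and in 2985 with the 1.5-fold minimum. Between big and medium oocytes the 0 calls became 5 with no filter on low counts, 10 with DESeq2, 4 with sections scaled to 1 depth, 4 with sections B to E, 5 with sections B to D and 0 to 4 without 1 oocyte. Section tests called 1146 transcripts in very small oocytes (459 with DESeq2, 715 to 799 without 1 oocyte), 1607 in small (759 to 1532), 1558 in medium (1083 to 1308) and 1801 in big oocytes (1138 to 1409). Leaving out a medium or big oocyte left 1 in its stage, so these fits used all libraries without the block and assumed that the lone oocyte varied like the others. Outer against middle sections gave 626 transcripts in small oocytes (338 to 693 without 1 oocyte) and 1376 in larger oocytes (738 to 1600), of which 78.1% were higher at the outer sections (87.1% with DESeq2 size factors). The section profile gave 1019 (828 to 1031).

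Replicate numbers in the labels did not pair the oocytes: the deviations of same-numbered oocytes had correlations of -0.415 to 0.06 in 13 pairs. With the number as a replicate block, 525 transcripts differed between larger and small oocytes (14.7% higher) and 3 between big and medium. In tests on sections the block is the oocyte itself, which pairs the sections cut from it. Adding it as a replicate block gave 1001 calls between outer and middle sections of small oocytes, 1770 in larger oocytes and 1240 in the profile test. Within a stage, with no replicate block, section tests called 505 transcripts in very small and 976 in small oocytes, and the calls of id3.L in small (0.564) and irf7.L in medium oocytes (0.108) were lost.

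Directions of the 7 transcripts reversed only where no difference was called. Of big minus medium, the reversed log2 values were -0.0047 for id3.S and -0.0019 for hes6.1.L with scaled sections. With sections B to E they were -0.0599 for id3.L, -0.079 for id3.S and -0.0097 for hes6.1.L. With sections B to D they were -0.0689 for id3.L, -0.1486 for id3.S, -0.0023 for hes6.1.L and 0.0059 for rbl1.S. Without 1 oocyte the ranges were -0.2094 to 0.4263 for id3.L, -0.0596 to 0.3176 for id3.S, -0.3232 to 0.2247 for irf7.L, -0.1361 to 0.2074 for hes6.1.L, -0.4507 to 0.1185 for hes6.1.S, -0.7092 to 0.0916 for rbl1.L and -0.3221 to 0.2113 for rbl1.S. For outer minus middle sections they were -0.218 to 0.3565 for rbl1.L and -0.2839 to 0.1408 for rbl1.S in larger oocytes, and -0.0136 to 0.0525 for hes6.1.L and -0.0983 to 0.0141 for rbl1.S in small oocytes. DESeq2 lost the section calls of id3.L (0.144) and id3.S (0.106) in medium and irf7.L (0.106) in big oocytes, and the outer call of id3.L in larger oocytes (0.211). Without small oocyte 1, irf7.L was called over the sections of small oocytes (0.0792) and id3.L at their outer sections (0.0564). Of all values of the 7 transcripts under alternatives, 949 kept direction and call, 40 lost a call, 5 gained one and 26 reversed. These counts include the contrast that chose the transcripts (142 kept and 5 lost). Many of the kept values were not called under either setting, so the tally does not measure how firm the calls are. The cause of the changes was not tested. The counts of id3 and irf7.L in small and very small oocytes limit what can be seen there. So do their counts in single sections of the larger oocytes, such as 12 for irf7.L in section E of medium oocyte 1.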
